A study of Mus musculus with 16 samples.

Results

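Hddc3, Ubl4b, Nexmif and Muc1 are 4 genes whose brain transcript levels set 1 or 2 of 3 connexin-deficient mouse lines apart from wild type. They are read by 4 of the 28704 spots of the array, 1 spot each, found by their symbols in the platform's probe annotation, and all 4 passed the filter on missing values. The genes were picked for their differences between the lines in these same arrays, so every level and difference of the 4 genes below is a description and carries no test.

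Neonatal mouse brain was profiled in 4 groups of 4 arrays. The Cx43 null group lacks the connexin Cx43 (gene Gja1), the Cx43 heterozygous group has a single null allele of it, and the Cx32 null group lacks the connexin Cx32 (gene Gjb1). The wild-type mice are C57BL/6j, and the labels give the 3 lines as C57BL. Age is given as neonatal, with no day, and neither the sex of the pups nor the number of brains per sample is stated. The labels do not say how the alleles were made. Connexins form gap junction channels: Cx43 is abundant in astrocytes, and Cx32 belongs to oligodendrocytes and Schwann cells. On each array brain RNA was hybridised in competition with 1 common reference, a pool of adult organs that include stomach, kidney, lung, testis and brain. Each value is a log ratio of brain to that reference after the array's median was set to 0. The labels state neither the base nor the direction. The values were read as log2 with brain as the numerator, and the folds and the words higher and lower hold only if that is so.

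The 4 genes have unrelated known roles. Hddc3 encodes MESH1, a hydrolase with an HD domain that in human cells acts as a phosphatase of NADPH and whose bacterial relatives break down the alarmone ppGpp. Ubl4b encodes a ubiquitin-like protein of the testis, an intronless relative of Ubl4a, whose product works with BAG6 in handing tail-anchored membrane proteins to the endoplasmic reticulum. Nexmif, also called KIDLIA or Xpn, is an X-linked gene of neurite extension and neuronal migration, and loss of its human counterpart causes intellectual disability with epilepsy. Muc1 encodes mucin 1, a heavily O-glycosylated protein of the apical surface of epithelia whose cytoplasmic tail binds beta-catenin.

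Each array gave values for 21010 to 24819 spots. Gja1, the targeted gene of the Cx43 lines, lay between -2.92 and -0.60 in Cx43 null brain and between -1.86 and -1.09 in Cx43 heterozygous brain, against 1.13 to 2.47 in wild-type brain. The Gja1 values of Cx43 null and Cx43 heterozygous brain overlapped, with a difference of -0.47 ± 0.37 (SE from limma). No spot is named Gjb1. In Cx32 null brain Gja1 lay between -0.07 and 0.27, also below every wild-type array. Wild-type replicate 1 stood apart, with a correlation of 0.75 across transcripts with the mean of the other wild-type arrays, where the other 15 arrays had 0.86 to 0.96 with theirs. Differences from wild type are therefore also given without it. Parts of the table are out of step between arrays, so the spots next to each gene, 50 on either side in table order, were compared with the median of the other arrays. Around Hddc3, Ubl4b and Nexmif 16 of 16 arrays matched best with no shift, and around Muc1 15 of 15. Wild-type replicate 4, which has no value for Muc1, had too few values there. The unshifted correlations reached lower on wild-type arrays. They ran from 0.64 to 0.92 around Nexmif, 0.67 to 0.90 around Hddc3 and 0.69 to 0.91 around Ubl4b. On the arrays of the lines they were 0.93 to 0.97, 0.88 to 0.97 and 0.84 to 0.97. Around Muc1 the correlations were 0.59, 0.75 and 0.75 on wild-type replicates 1 to 3, against 0.72 to 0.94 on the arrays of the lines.

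Ubl4b and Nexmif were both far above wild type in Cx43 heterozygous brain. Their promoters are shown as the pair that was higher together there, in the letters of RefSeq on GRCm38.p6, from 250 bases before the gene start to 50 after it, on the gene's strand, with CpG dinucleotides in capitals. The Ubl4b window is chr3:107555024-107555323 on the minus strand and the Nexmif window chrX:104201135-104201434 on the minus strand.
Ubl4b: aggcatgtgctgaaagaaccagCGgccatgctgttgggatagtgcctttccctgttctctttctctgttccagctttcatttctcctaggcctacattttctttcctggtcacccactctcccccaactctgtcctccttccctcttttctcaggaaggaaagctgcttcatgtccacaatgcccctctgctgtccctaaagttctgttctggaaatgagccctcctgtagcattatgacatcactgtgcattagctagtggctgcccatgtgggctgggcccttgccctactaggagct
Nexmif: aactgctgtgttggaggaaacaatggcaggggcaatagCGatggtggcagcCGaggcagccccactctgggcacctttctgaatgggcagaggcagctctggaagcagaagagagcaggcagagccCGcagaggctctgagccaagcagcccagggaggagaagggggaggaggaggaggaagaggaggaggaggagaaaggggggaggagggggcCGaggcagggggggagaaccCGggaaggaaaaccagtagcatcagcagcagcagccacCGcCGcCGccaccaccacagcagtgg
The Ubl4b window holds 1 CpG, and only 5.4% of the 32851 mouse promoter windows in the table hold fewer. The Nexmif window holds 8, near the median of 7, and has 64.3% G and C against 51.7% for Ubl4b. Of 3 motifs searched on both strands, neither holds any. The TATA box was searched as TATAAA, which 13.62% of all windows hold. The GC box was searched as GGGCGG and is in 35.66% of windows, and the cyclic AMP response element was searched as TGACGTCA and is in 1.79%. The Hddc3 window holds 20 CpG and none of the motifs, and the Muc1 window holds 6 CpG, 1 TATA box and 2 GC boxes.

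Hddc3 was higher in Cx32 null brain than in each of the other groups. Its log2 ratio was 0.08, 0.16, 0.17 and -0.17 on the Cx43 null arrays. It was 0.20, -0.32, -0.05 and -0.27 on the Cx43 heterozygous arrays and 1.05, 1.75, 2.14 and 2.08 on the Cx32 null arrays, against -0.18, 0.15, -0.26 and -0.11 on the wild-type arrays. The lowest Cx32 null array, replicate 1, was still 0.85 above the highest array of the other 3 groups, whose values overlapped one another. Group means were 0.06 ± 0.16 in Cx43 null, -0.11 ± 0.24 in Cx43 heterozygous and 1.75 ± 0.50 in Cx32 null brain, against -0.10 ± 0.17 in wild type (SD, n = 4 each). Cx32 null brain was thus 3.62-fold above wild type, a log2 difference of 1.86 ± 0.22 (SE from limma), and 1.83 without wild-type replicate 1. Of 14292 transcripts, 19 had a larger difference in that direction. Against Cx32 null, the difference was -1.70 ± 0.22 in Cx43 null and -1.86 ± 0.22 in Cx43 heterozygous brain, with 2 and 7 transcripts lower still. The differences of both Cx43 lines from wild type, 0.16 and -0.01, were smaller in size than the wild-type SD of 0.17. That of Cx43 null brain was about as large as the SD of its own arrays.

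Ubl4b was higher in Cx43 heterozygous brain than in the other groups. Its log2 ratio was -2.97, -3.54, -3.07 and -1.76 on the Cx43 null arrays. It was 0.01, -1.25, -0.76 and -0.21 on the Cx43 heterozygous arrays and -1.90, -3.33, -3.77 and -4.37 on the Cx32 null arrays, against -2.64, -2.89, -3.32 and -3.03 on the wild-type arrays. All 4 heterozygous arrays lay above all 12 others. In the other groups brain stayed well below the reference pool, which contains testis, where this gene is known to be expressed. Cx43 null replicate 4 and Cx32 null replicate 1 lay above every wild-type array. Means were -2.84 ± 0.76 in Cx43 null, -0.55 ± 0.57 in Cx43 heterozygous and -3.34 ± 1.05 in Cx32 null brain, against -2.97 ± 0.29 in wild type (SD, n = 4 each). The heterozygous difference from wild type was 2.41 ± 0.44 (SE), which is 5.33-fold, and 2.53 without wild-type replicate 1, and 4 of 14292 transcripts had a larger positive difference. The difference of Cx43 null from Cx43 heterozygous brain was -2.28 ± 0.44, the most negative of all 14292 in that contrast. Cx43 heterozygous was 2.79 ± 0.44 above Cx32 null brain. The differences from wild type in Cx43 null (0.13) and Cx32 null brain (-0.37) were smaller than the spread between arrays of those lines.

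**Figure D1:**
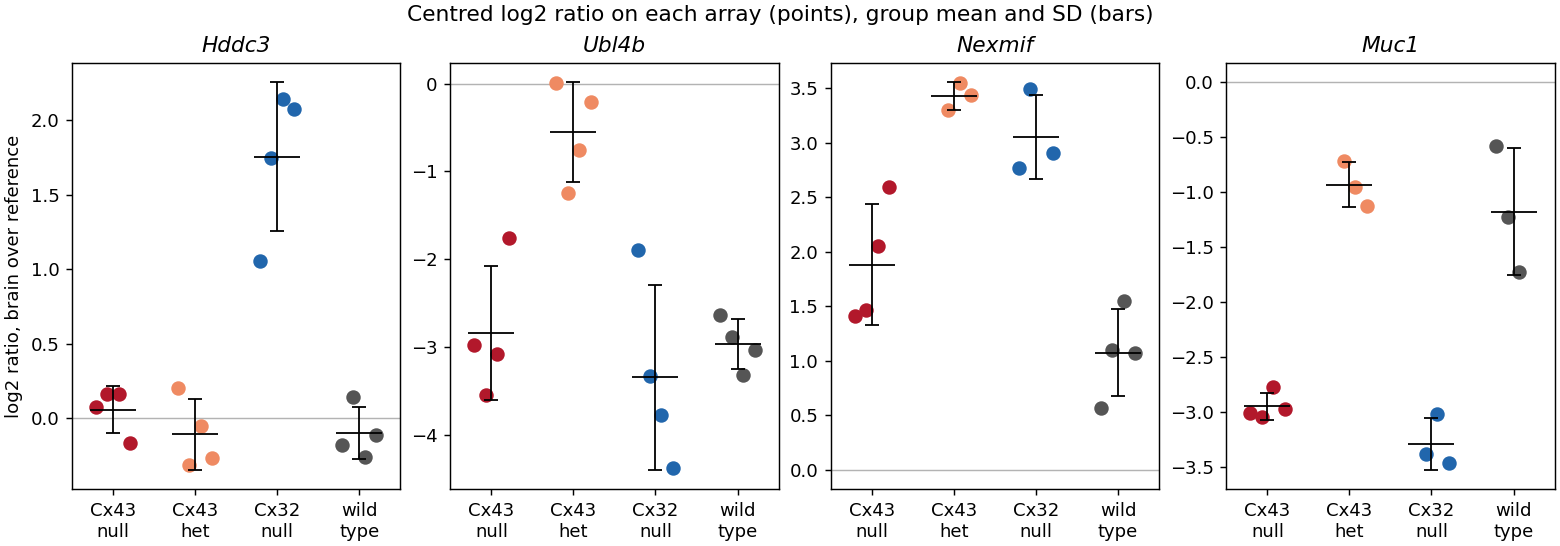
Log2 ratio of brain over reference (vertical axis, array median set to 0) on each array for the 4 genes, by group. Points are arrays and bars the group mean with SD (n = 4, or 3 where an array has no value). Hddc3 separates Cx32 null brain (1.05 to 2.14), Ubl4b separates Cx43 heterozygous brain (-1.25 to 0.01), Nexmif is highest in Cx43 heterozygous and Cx32 null brain, and Muc1 is lowest in both null lines.

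Nexmif was highest in Cx43 heterozygous and Cx32 null brain. Its log2 ratio was 1.41, 1.47, 2.05 and 2.59 on the Cx43 null arrays. It was 3.30, 3.55 and 3.43 on Cx43 heterozygous replicates 2 to 4 and 2.77, 3.49 and 2.90 on Cx32 null replicates 1, 2 and 4, against 0.57, 1.10, 1.55 and 1.07 on the wild-type arrays. The gene had no value on Cx43 heterozygous replicate 1 and Cx32 null replicate 3. Brain exceeded the reference on every array that read it, and the wild-type mean stood at the 85.8th percentile of transcripts. Means were 1.88 ± 0.56 (SD, n = 4) in Cx43 null, 3.43 ± 0.13 (n = 3) in Cx43 heterozygous and 3.05 ± 0.38 (n = 3) in Cx32 null brain, against 1.07 ± 0.40 (n = 4) in wild type. Cx43 heterozygous brain was 5.11-fold above wild type (2.35 ± 0.29 SE) and Cx32 null brain 3.95-fold (1.98 ± 0.29), with 6 and 15 transcripts beyond them. Without wild-type replicate 1 these differences were 2.19 and 1.81. Heterozygous and Cx32 null values overlapped. Cx43 null brain lay in between, 0.81 ± 0.27 above wild type with overlapping values, with differences of -1.55 ± 0.29 from heterozygous and -1.17 ± 0.29 from Cx32 null brain. Nexmif is thus not particular to a single line: it separates the Cx43 heterozygous and Cx32 null lines from wild type, and Cx43 null brain from both.

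Muc1 was lower in both null lines. Its log2 ratio was -3.04, -2.77 and -2.97 on Cx43 null replicates 2 to 4, with replicate 1 between the lowest and the next of these. It was -0.72, -0.95 and -1.12 on Cx43 heterozygous replicates 2 to 4 and -3.37, -3.02 and -3.46 on Cx32 null replicates 2 to 4, against -0.58, -1.22 and -1.73 on wild-type replicates 1 to 3. All 7 null values lay below all 6 heterozygous and wild-type values. Cx43 heterozygous replicate 1, Cx32 null replicate 1 and wild-type replicate 4 have no value for this spot. Means were -2.95 ± 0.12 (SD, n = 4) in Cx43 null, -0.93 ± 0.20 (n = 3) in Cx43 heterozygous and -3.29 ± 0.24 (n = 3) in Cx32 null brain, against -1.17 ± 0.58 (n = 3) in wild type. Muc1 was 3.41-fold lower than wild type in Cx43 null brain (-1.77 ± 0.24 SE) and 4.32-fold lower in Cx32 null brain (-2.11 ± 0.26). Without wild-type replicate 1 these differences were -1.47 and -1.81. With all arrays, 51 transcripts were lower still against wild type in Cx43 null and 63 in Cx32 null brain. The heterozygous difference from wild type was 0.25 ± 0.26 with overlapping values. The difference of Cx43 null from Cx43 heterozygous brain was -2.02 ± 0.24, with 1 transcript lower still, and Cx43 heterozygous was 2.36 ± 0.26 above Cx32 null brain. The null lines differed from each other by 0.34 ± 0.24, with overlapping values.

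The label of line-specific genes describes Hddc3 (Cx32 null) and Ubl4b (Cx43 heterozygous) in the sense that 1 line is separated from all other groups. Nexmif and Muc1 each set 2 lines apart from wild type. Since 3 of the 6 contrasts share the wild-type arrays and the others share the arrays of the lines, the differences of 1 gene are not independent. Among the 4 genes, the groups did not overlap for 1 in Cx43 null against wild type (lower), 2 in Cx43 heterozygous (both higher) and 3 in Cx32 null (2 higher, 1 lower). Over all transcripts the groups did not overlap for 12.9%, 31.1% and 27.8% in the same contrasts. Between the lines 3 of 4 did not overlap in Cx43 null against Cx43 heterozygous, 2 in Cx43 null against Cx32 null and 3 in Cx43 heterozygous against Cx32 null brain, beside 12.4%, 7.88% and 14% of all transcripts. These shares are given as background to genes that were picked on the same contrasts.

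**Figure D2:**
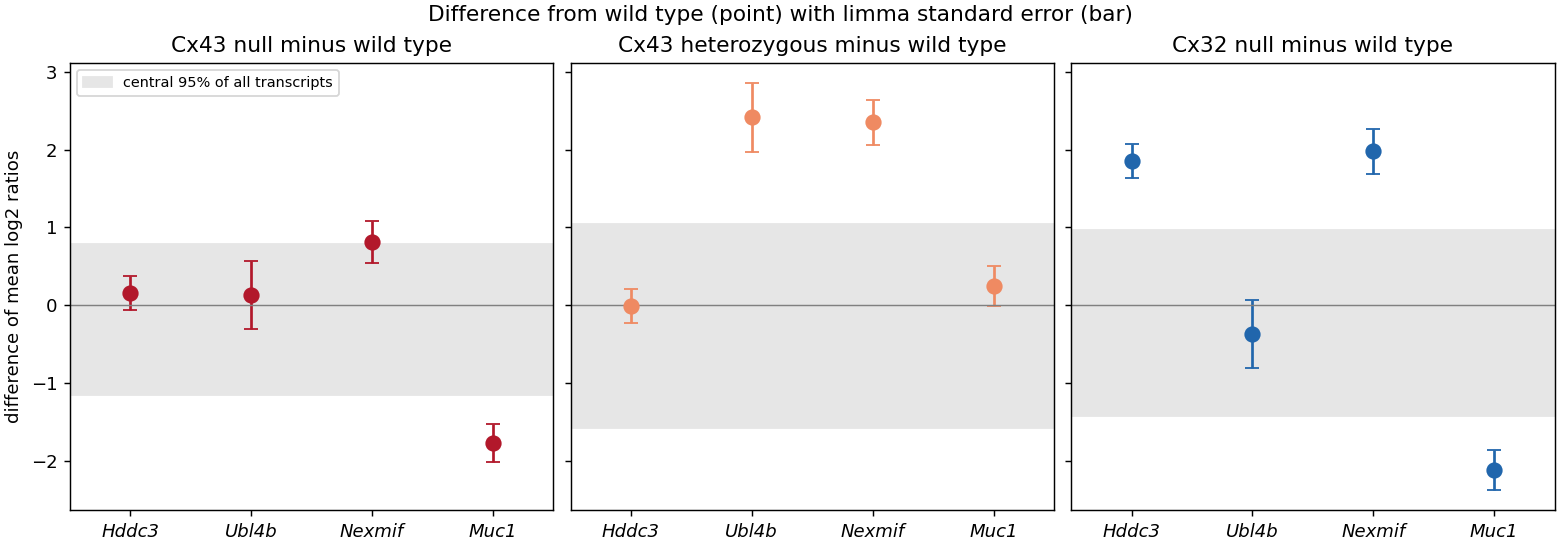
Difference of mean log2 ratios from wild type (vertical axis) for the 4 genes in each line, with limma's standard error as bars. The grey band holds the central 95% of all 14292 transcripts, -1.16 to 0.79 in Cx43 null, -1.57 to 1.04 in Cx43 heterozygous and -1.43 to 0.97 in Cx32 null brain. Muc1 in both null lines, Ubl4b and Nexmif in Cx43 heterozygous, and Hddc3 and Nexmif in Cx32 null brain lie outside it, and Nexmif in Cx43 null brain, at 0.81, lies just past its edge.

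With any 1 array of the compared groups left out, the separations kept their direction. The values of these groups did not overlap, so the direction was fixed in advance and only the size could change. The difference of Hddc3 in Cx32 null brain ran from 1.73 to 2.09 and that of Ubl4b in Cx43 heterozygous brain from 2.23 to 2.65. Nexmif ran from 2.19 to 2.51 in Cx43 heterozygous and from 1.76 to 2.14 in Cx32 null brain, and Muc1 from -2.05 to -1.47 in Cx43 null and from -2.39 to -1.81 in Cx32 null brain. Some smaller differences crossed 0 or lost much of their size. Nexmif in Cx43 null brain was 0.57 without Cx43 null replicate 4, Ubl4b in the same line was 0.13 with all arrays and -0.23 without that one, and Muc1 in Cx43 heterozygous brain was 0.25 with all arrays and -0.03 without wild-type replicate 3. Hddc3 in Cx43 null brain stayed between 0.11 and 0.24.

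**Figure D3:**
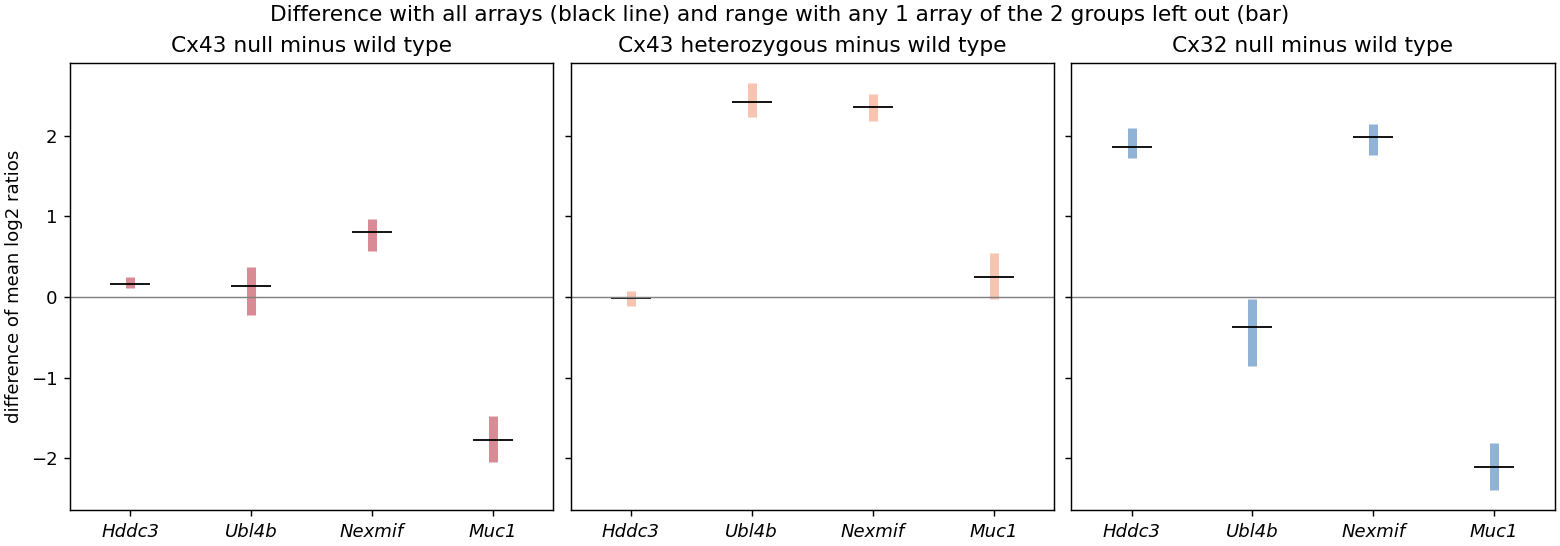
Difference of mean log2 ratios from wild type (vertical axis) for the 4 genes in each line with all arrays (black line) and the range when any 1 array of the groups compared is left out (coloured bar). The bars of Hddc3 in Cx32 null (1.73 to 2.09) and of Ubl4b in Cx43 heterozygous brain (2.23 to 2.65) are short beside their distance from 0, while that of Ubl4b in Cx43 null brain crosses 0.

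Markers of cells known to express Muc1 or Ubl4b were set beside them. Of 15 epithelial markers 8 were measured (Cdh1, Epcam, Krt8, Krt19, Cldn3, Cldn7, Elf3 and Spint2). Their median log2 ratio per array ran from -1.93 to -1.39 in Cx43 null, from -2.42 to -1.72 in Cx43 heterozygous and from -2.34 to -1.26 in Cx32 null brain, against -1.10 to -0.79 in wild-type brain. This list was thus below wild type on every array of all 3 lines, including the heterozygous arrays, on which Muc1 was not low. By limma with Benjamini-Hochberg adjustment 3 of the 8 fell and 0 rose in Cx43 null brain, 4 fell and 0 rose in Cx43 heterozygous, and 5 fell and 1 rose in Cx32 null brain. Over all 14292 transcripts 6.43% fell and 4.37% rose in Cx43 null, 17.5% fell and 13.5% rose in Cx43 heterozygous, and 14.3% fell and 13.1% rose in Cx32 null brain. The counts depended on single arrays: 1 fell in Cx43 null brain without Cx43 null replicate 3 and 0 with only those 2 groups fitted. In Cx32 null brain 2 fell without Cx32 null replicate 4 or under cyclic loess, and 3 without wild-type replicate 2. In this bulk tissue, fewer cells of a type and less RNA per cell cannot be told apart, and the part of the epithelial markers in the Muc1 values was not tested.

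Of 20 germ cell markers of the testis, 4 were measured (Prm2, Tnp1, Odf1 and Smcp). Their median per array ran from -6.74 to -5.38 in Cx43 null, from -6.42 to -5.30 in Cx43 heterozygous and from -7.02 to -5.46 in Cx32 null brain, against -5.85 to -5.08 in wild type. They lay far below the reference on every array, and in heterozygous brain, where Ubl4b was high, 0 of the 4 rose and 1 (Odf1) fell by limma. Odf1 lies where wild-type replicate 3 was out of step. Under cyclic loess 2 of the 4 rose in heterozygous brain and under quantile normalization 1, so the direction of these markers depends on the scaling. Neuronal markers, of which 8 of 13 were measured, had array medians of 1.25 to 1.78 in Cx43 null, 1.24 to 1.56 in Cx43 heterozygous and 1.18 to 1.50 in Cx32 null brain, against 1.07 to 2.01 in wild-type brain. The groups overlapped in this list. Of 9 red blood cell markers 4 were measured, with array medians of -2.06 to -1.16 in Cx43 null, -2.02 to -1.57 in Cx43 heterozygous and -1.94 to -1.53 in Cx32 null brain, against -1.48 to -0.85 in wild-type brain. This list was thus below every wild-type array on all heterozygous and Cx32 null arrays, and 0 of the 4 fell in Cx43 null, 2 in Cx43 heterozygous and 2 in Cx32 null brain by limma, with 0 higher. In Cx43 null brain 2 fell without Cx43 null replicate 1 or wild-type replicate 4, and in Cx32 null brain 1 fell without Cx32 null replicate 1 or 4 or wild-type replicate 2 or 3. Hbb-b1 has wild-type replicate 1 out of step. Of 12 markers of astrocytes and radial glia 4 were measured, and 1 rose and 1 fell in Cx43 heterozygous brain. Of 10 markers of the choroid plexus 4 were measured. Among these 1 fell in Cx43 null, 2 rose and 1 fell in Cx43 heterozygous, and 1 rose and 1 fell in Cx32 null brain. With 1 array left out the calls of these 2 lists ranged from 0 to 2 in either direction. Beside the counts of all these lists, 4.37% of all transcripts rose and 6.43% fell in Cx43 null brain. The shares were 13.5% and 17.5% in Cx43 heterozygous and 13.1% and 14.3% in Cx32 null brain. The part of these cell type markers in the values of the 4 genes was not tested.

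**Figure D4:**
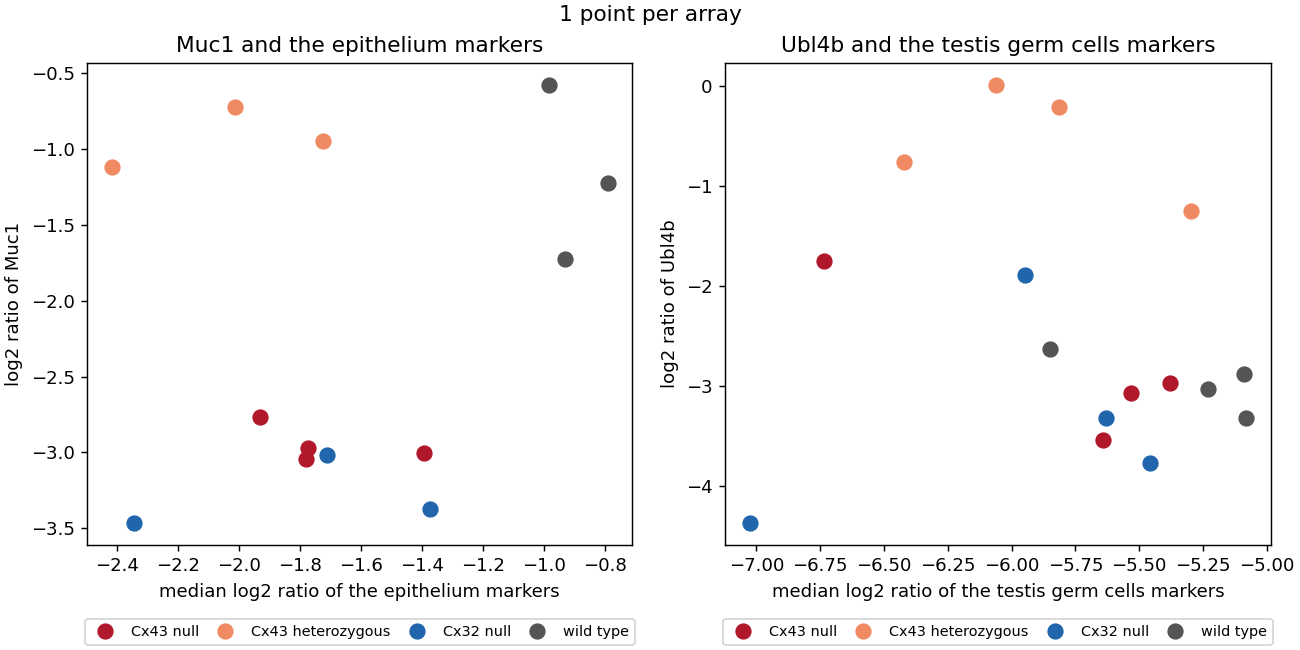
Log2 ratio of Muc1 against the median of 8 epithelial markers (left) and of Ubl4b against the median of 4 germ cell markers of the testis (right), 1 point per array, coloured by group. On the left, the 3 Cx43 heterozygous arrays with a Muc1 value combine low epithelial medians with Muc1 values of -1.12 to -0.72. On the right, the heterozygous arrays stand above the others in Ubl4b, while their germ cell medians lie among those of the other groups.

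The genes that lie nearest to the 4 on their chromosomes were compared as a further property that the choice did not use. Nexmif is on chromosome X, Ubl4b and Muc1 on chromosome 3 and Hddc3 on chromosome 7. For each, the 5 nearest measured named genes on either side were taken in RefSeq order. Of the 10 neighbours of Nexmif, 0 were called in either direction in Cx43 heterozygous or Cx32 null brain against wild type, where 31% and 27.3% of all transcripts were called at an adjusted p under 0.05 by limma. Their differences ran from -0.75 (Cox7b) to 0.40 (Chic1) in Cx43 heterozygous brain. Xist, the RNA that silences 1 X chromosome in females, is among these neighbours and lay between 0.18 and 0.81 in Cx43 null (n = 3), between 0.02 and 0.35 in Cx43 heterozygous and between -0.38 and 0.49 in Cx32 null brain, against -0.33 to 0.55 in wild-type brain. The groups overlapped, as they did for the Y-linked gene Eif2s3y, whose values lay between -0.62 and 0.97 over all arrays.

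Near Hddc3, 1 of 10 genes rose and 1 fell in Cx43 null, 1 rose and 2 fell in Cx43 heterozygous, and 3 rose and 1 fell in Cx32 null brain, where 13.1% of all transcripts rose and 14.3% fell. The largest difference in Cx32 null brain was that of Man2a2, a Golgi mannosidase (1.02, limma adjusted p = 0.00233), of which 1 of 2 spots lies where wild-type replicate 4 was out of step. Near Ubl4b, 2 of 10 rose and 1 fell in Cx43 null, 3 rose and 2 fell in Cx43 heterozygous, and 2 rose and 1 fell in Cx32 null brain. Among all transcripts 4.37% rose and 6.43% fell in Cx43 null, and 13.5% rose and 17.5% fell in Cx43 heterozygous brain. Gstm7, a glutathione S-transferase, fell in all 3 lines (-1.28 in Cx43 null, -1.42 in Cx43 heterozygous and -1.05 in Cx32 null brain). Rbm15, an RNA-binding protein, rose in all 3 (0.76, 0.89 and 0.83), as did Cd53 (0.85, 0.80 and 0.75). Against wild type, Kcna3 (-0.87) and Eps8l3 (0.87) were called in Cx43 heterozygous brain only. The part of the chromosome region in the Ubl4b values was not tested. Gstm7 belongs to a family of near copies that may cross-hybridise. Near Muc1, 0 rose and 2 fell in Cx43 null brain, where 10.8% of all transcripts were called, 1 rose and 1 fell in Cx43 heterozygous brain, and 0 were called in Cx32 null brain. Spots that adjoin the 4 in table order were also compared. The 5 on each side differed from -2.07 to 0.68 around Ubl4b in Cx43 heterozygous brain (5 of 10 with enough values), from -1.40 to 0.47 around Nexmif in that line, from -2.09 to 0.71 around Hddc3 in Cx32 null brain and from -0.66 to 0.98 around Muc1 in Cx43 null brain.

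The transcripts most like each gene were those with the highest Pearson correlation over the arrays that read both. For Hddc3 these were Tfip11, a splicing factor (r = 0.87 over 16 arrays), Bcl7a, a subunit of BAF chromatin remodelling complexes (0.84), and Fam32a (0.83). Tfip11 averaged 0.09 in Cx43 null, 0.27 in Cx43 heterozygous and 0.96 in Cx32 null brain, against -0.05 in wild type. Its mean rests in part on a spot where 7 arrays were out of step with the rest, including every wild-type array, so its likeness to Hddc3 cannot be told apart from that displacement. Fam32a averaged 0.08, 0.25 and 1.02 in the same 3 lines, against -0.23 in wild type. None of its spots was out of step on an array that could be tested, which was 15 of 16 arrays for 1 spot. For Ubl4b they were E130307A14Rik (0.88 over 16 arrays), St8sia1, the GD3 synthase of ganglioside synthesis (0.86), and Stx17, a syntaxin of autophagosome fusion (0.85). E130307A14Rik averaged 1.15 in Cx43 null, 2.24 in Cx43 heterozygous and 1.28 in Cx32 null brain, against 1.02 in wild type.

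For Nexmif the most alike were the unconventional myosin Myo16, the ubiquitin ligase Trim26 and Cep170b, each at 0.92 over 14 arrays. Myo16 averaged 0.68 in Cx43 null, 2.01 in Cx43 heterozygous and 1.44 in Cx32 null brain, against -0.10 in wild type, the same order as Nexmif. For Muc1 they were Lyar, a nucleolar protein (0.90 over 13 arrays), Rnf225 (0.89, with wild-type replicate 3 out of step at 1 of its 2 spots) and Rubcnl, a regulator of autophagy (0.88). Lyar averaged -2.27 in Cx43 null, -0.90 in Cx43 heterozygous and -2.22 in Cx32 null brain, against -0.55 in wild type. The arrays share the reference and fall into 4 groups, and each r is the highest of 6997 to 8602 genes compared. Among the 4 genes themselves r ran from -0.65 (Hddc3 and Muc1, 13 arrays) to 0.67 (Ubl4b and Muc1, 13 arrays).

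**Figure D5:**
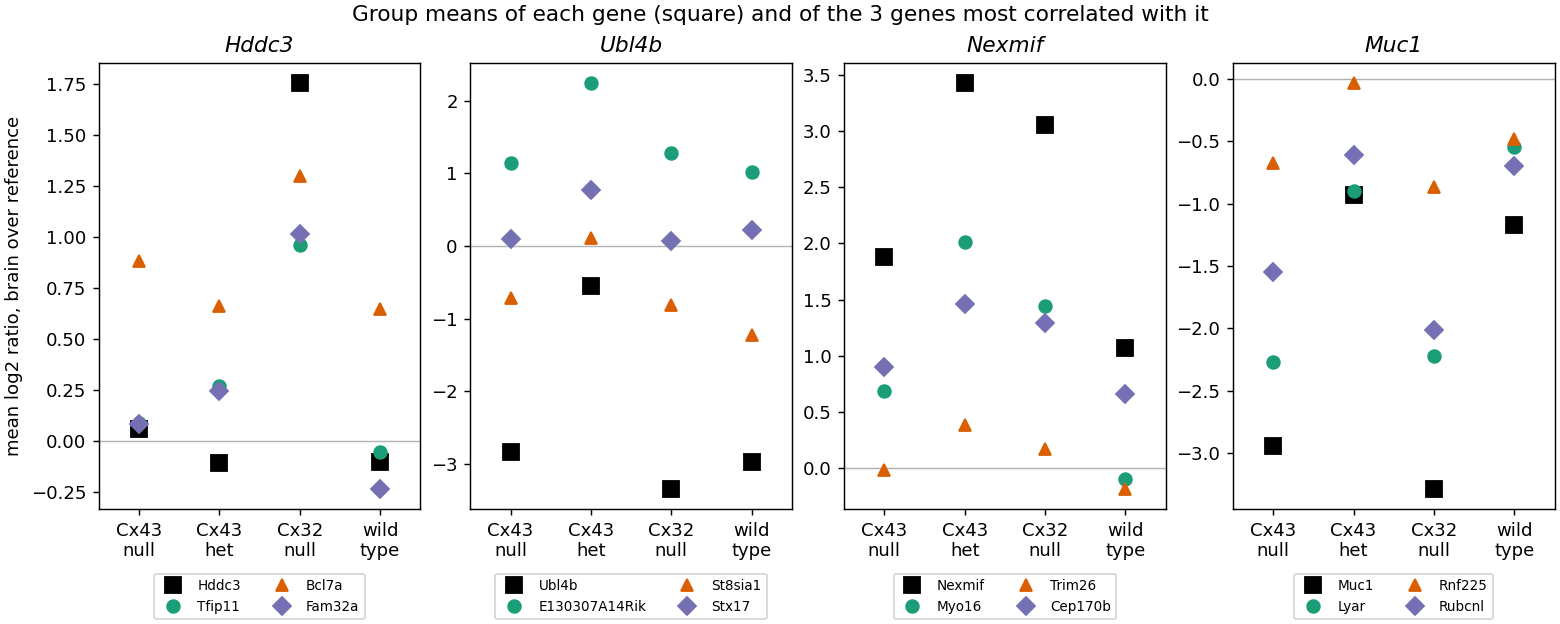
Mean log2 ratio of brain over reference (vertical axis) in each group for the 4 genes (squares) and for the 3 genes most correlated with each (coloured symbols). Tfip11 has a spot out of step on 7 arrays. Lyar and Rubcnl are lower in both null lines, as Muc1 is, and E130307A14Rik is highest in Cx43 heterozygous brain (2.24), as Ubl4b is.

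Genes of the pathways around the 4 were counted in 4 lists, none of which holds the 4 themselves. By limma, at a Benjamini-Hochberg adjusted p under 0.05, 4.37% of all transcripts rose and 6.43% fell in Cx43 null brain against wild type. In Cx43 heterozygous brain 13.5% rose and 17.5% fell, and in Cx32 null brain 13.1% rose and 14.3% fell. With the values as deposited, the higher share of calls in Cx43 heterozygous brain was 62.7% in place of 43.6%, and the median of all transcripts moved to 0.15, against -0.02 when centred. Over the 4 lists 14 members were called in Cx43 null brain. That count fell to 0 with only those 2 groups fitted. It was 6, 1 and 5 without Cx43 null replicates 2, 3 and 4, and 8 and 5 without wild-type replicates 1 and 2. Of 194 list, marker, like and neighbouring genes, 37 had a spot at which at least 1 array was out of step, either shifted or with a correlation under 0.5.

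In the list of BAG6 and membrane protein targeting, the pathway of the Ubl4b relative Ubl4a, 29 of 38 genes were measured. No spot is named Ubl4a. In Cx43 null brain 3 rose and 4 fell, in Cx43 heterozygous brain 3 rose and 8 fell, and in Cx32 null brain 4 rose and 6 fell. The median difference was -0.21, -0.24 and -0.22 in the 3 lines, beside 0.01, -0.02 and -0.03 over all transcripts. Without the 8 members with a spot out of step, 2 rose and 4 fell in Cx43 null, 2 rose and 6 fell in Cx43 heterozygous and 2 rose and 6 fell in Cx32 null brain. Vapb, a tail-anchored contact protein of the endoplasmic reticulum, rose by 0.84 ± 0.24 in Cx43 heterozygous and by 0.87 ± 0.24 in Cx32 null brain, but 1 of its 2 spots (0.39 and 0.50 in these lines), tested on its own, did not pass. It also passed in Cx43 null brain (0.77 ± 0.24, adjusted p = 0.0459), but in only 7 of 25 other settings. Get1, the receptor subunit that takes up tail-anchored proteins, rose by 0.94 ± 0.23 in Cx32 null brain (adjusted p = 0.00787) and by 0.95 ± 0.23 in Cx43 null brain, with wild-type replicate 4 out of step at its spot. In Cx43 null brain Get1 did not pass without Cx43 null replicate 3 (0.95) or 4 (0.91). Srp72, a subunit of the signal recognition particle read by 3 spots, fell in Cx43 null (-1.05 ± 0.22) and Cx43 heterozygous brain (-1.28 ± 0.22), though not in Cx43 null without Cx43 null replicate 3 (-0.92). The membrane insertase subunit Emc3 fell in Cx43 heterozygous (-1.43 ± 0.26) and Cx32 null brain (-1.52 ± 0.26). The ubiquilin Ubqln4 fell in Cx43 null brain (-1.14 ± 0.30), but did not pass in 7 of 25 other settings, among them without Cx43 null replicate 2 (-1.19), 3 (-1.02) or 4 (-1.05) and without wild-type replicate 1 (-0.89) or 2 (-1.07). Sgtb, a co-chaperone of the pathway, fell in Cx32 null brain (adjusted p = 0.0021). Srp54a, another subunit of the particle, rose by 0.72 ± 0.21 in Cx43 heterozygous brain, though not without Cx43 heterozygous replicate 4 (0.60).

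In the list of X-linked neuronal and neurodevelopmental genes, which share the chromosome of Nexmif, 30 of 60 were measured. In Cx43 null brain 1 rose and 2 fell, in Cx43 heterozygous brain 2 rose and 9 fell, and in Cx32 null brain 2 rose and 6 fell, with medians of -0.21, -0.36 and -0.16. Without the 6 members with a spot out of step, 0 rose and 1 fell in Cx43 null, 1 rose and 7 fell in Cx43 heterozygous and 1 rose and 4 fell in Cx32 null brain. Syn1, a synaptic vesicle protein, fell in Cx43 heterozygous (-1.93 ± 0.27) and in Cx32 null brain (-0.95 ± 0.27), though not in Cx32 null without Cx32 null replicate 4 (-0.77) or wild-type replicate 2 (-0.81). The glycolytic kinase Pgk1 fell in the same lines (-1.54 ± 0.32 and -1.63 ± 0.32), with wild-type replicate 3 out of step at its spot. The cell adhesion gene L1cam rose by 0.72 ± 0.18 in Cx43 null, 0.65 ± 0.18 in Cx43 heterozygous and 0.71 ± 0.18 in Cx32 null brain, and 1 of its 2 spots lies where wild-type replicate 1 was out of step. Also, 1 of the L1cam spots, tested on its own, did not pass in any line, and in Cx43 null brain L1cam did not pass without Cx43 null replicate 3 (0.67). Cul4b, a ubiquitin ligase scaffold, passed in Cx43 null brain (-0.86 ± 0.25) but in only 11 of 24 other settings, and in 11 of 16 with 1 array left out it did not (range -1.04 to -0.62). Shroom4, an actin-binding protein, fell in Cx43 null brain (-1.44 ± 0.34, with wild-type replicate 4 out of step), though not without Cx43 null replicate 3 (-1.44) or 4 (-1.33) or wild-type replicate 2 (-1.25). The glypican Gpc3, read by 1 spot that passed the filter, rose by 1.10 ± 0.26 in Cx32 null brain. With at least 2 of 4 values per group, or without Cx43 heterozygous replicate 1 or 2, its difference was 0.36 and did not pass. In these settings a further spot of Gpc3 passed the filter on missing values and lowered the average. The RNA methyltransferase Ftsj1 rose by 0.58 ± 0.16 in Cx43 heterozygous brain.

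In the list of mucins, their glycosyltransferases and partners of mucin 1, 24 of 44 were measured. In Cx43 null brain 1 rose and 3 fell, in Cx43 heterozygous brain 3 rose and 7 fell, and in Cx32 null brain 1 rose and 6 fell, with medians of -0.05, -0.19 and -0.07. Without the 6 members with a spot out of step, 1 rose and 3 fell in Cx43 null, 3 rose and 6 fell in Cx43 heterozygous and 1 rose and 5 fell in Cx32 null brain. Ctnnb1, the beta-catenin that binds the mucin 1 tail, fell in all 3 lines, with differences of -1.23 ± 0.27 in Cx43 null, -1.95 ± 0.27 in Cx43 heterozygous and -1.73 ± 0.27 in Cx32 null brain. Its 2 spots agreed in sign but not in size, at -3.32 and -0.85 in Cx43 heterozygous brain, and 1 of them, tested on its own, did not pass in any line. In Cx43 null brain Ctnnb1 also did not pass without Cx43 null replicate 3 (-0.97) or wild-type replicate 1 (-0.86). Its relative Jup, also called plakoglobin, fell in Cx43 null brain (-1.02 ± 0.19). The O-glycan enzyme Gcnt1 rose by 0.80 ± 0.21 in Cx43 heterozygous and by 0.85 ± 0.19 in Cx32 null brain. Its 2 spots differed in size, at 0.60 and 1.00 in Cx43 heterozygous and at 0.39 and 1.28 in Cx32 null brain, and the lower, tested on its own, did not pass in either line. The NF-kappaB subunit Rela rose by 0.72 ± 0.20 in Cx43 null brain and by 1.03 ± 0.20 in Cx43 heterozygous brain, but in Cx43 null brain it did not pass in 8 of 25 other settings, 6 of them with 1 array left out. Without Cx43 null replicates 2, 3 and 4 it was 0.72, 0.61 and 0.79, and without wild-type replicates 1, 2 and 3 it was 0.69, 0.69 and 0.61. Galnt7, an enzyme of O-glycan synthesis, fell in Cx43 heterozygous brain (-1.58 ± 0.27) and the sialomucin Podxl in Cx32 null brain (-1.26 ± 0.25).

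In the list of NADPH, guanine nucleotide and HD domain enzymes around Hddc3, 29 of 51 were measured. By limma 0 were called in Cx43 null brain, where 4434 of 14292 transcripts had an unadjusted p under 0.05, and 4 with array weights. In Cx43 heterozygous brain 3 rose and 5 fell and in Cx32 null brain 4 rose and 4 fell, with medians of -0.05, -0.06 and 0.08 in the 3 lines. Without the 4 members with a spot out of step, 3 rose and 4 fell in Cx43 heterozygous and 4 rose and 3 fell in Cx32 null brain. The 8 calls of Cx32 null brain became 4 without Cx32 null replicate 1 or 4 and 5 without wild-type replicate 1, and the 8 of Cx43 heterozygous brain became 4 without Cx43 heterozygous replicate 3. Nadk2, the mitochondrial NAD kinase that makes NADP, fell in Cx43 heterozygous (-1.19 ± 0.28) and Cx32 null brain (-0.98 ± 0.28, and -0.65 without wild-type replicate 1). Nudt1, which removes oxidised nucleotides, rose by 0.73 ± 0.23 and 0.78 ± 0.23 in these lines, though in neither without wild-type replicate 1 (0.47 and 0.51) or 2 (0.74 and 0.78). It also did not pass without Cx43 heterozygous replicate 3 (0.65) or without Cx32 null replicate 1 (0.69), each in its own line. In Cx43 heterozygous brain the guanine deaminase Gda fell (-1.09 ± 0.29) and the phosphodiesterase Pde4a rose by 1.00 ± 0.20. In Cx32 null brain Nmnat1, an enzyme of NAD synthesis, fell (-1.23 ± 0.34), though not without Cx32 null replicate 4 (-0.97), and the phosphodiesterase Pde8a rose by 0.79 ± 0.21, though not without wild-type replicate 3 (0.60).

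Between the lines fewer transcripts were called, 1.46% in Cx43 null against Cx43 heterozygous, 0.084% in Cx43 null against Cx32 null and 1.23% in Cx43 heterozygous against Cx32 null brain. In Cx43 null against Cx43 heterozygous brain 0.77% of all transcripts rose and 0.686% fell, and of the list members 1 X-linked gene and 1 of the mucin list rose and 1 of the NADPH list fell. In Cx43 null against Cx32 null brain 0.07% rose and 0.014% fell, and in Cx43 heterozygous against Cx32 null brain 0.903% rose and 0.329% fell. In both of these contrasts 0 list members were called by limma, where 1303 and 1625 transcripts had an unadjusted p under 0.05.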

How the data were processed

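Brain RNA was measured on 16 arrays with 2 colours, 4 for each genotype. The authors deposited 1 log ratio per spot and array, taken here as log2, and no intensities were used. Normalization within an array is not given in the sources used here. Per the labels, the reference carried Cy5 on every array. Cx32 null samples are called neonatal in their descriptions, not their titles. Wild-type replicate 3 was numbered by its title, from which its channel label differs.

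Each array was centred on its median. Spots with at least 3 of 4 values in every group were kept (19951 of 28704), and spots of 1 gene averaged into 14292 transcripts. Symbols came from the platform annotation. A single model in limma 3.58.1 (R 4.3.3, lmFit and eBayes, 2-sided) held the 4 groups, called at a Benjamini-Hochberg adjusted p under 0.05. The labels do not say whether samples are separate animals, so p-values measure only the spread between these samples. The fit was tested on simulated data for Cx43 null against wild type. It recovered 96 of 100 changes of log2 size 2 and 48 of 100 of size 1, and 10 of 154 calls were false. A change of about that smaller size can therefore go uncalled.

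The 4 genes and all lists were chosen with earlier results of these data known. Named genes are the 4, the 3 genes most correlated with each, and up to 2 called members per list, line and direction. The correlation rule asked for 14 shared arrays, but Muc1 has only 13 values, so 13 were used for it. The sex-linked markers, chromosome neighbours, adjacent spots, motifs and the check of spots out of step were added after the data had been seen, and the neighbours were named for their values. Markers of the other cell types are given with the results. The 2 sex-linked markers measured gave 0 calls by limma in any line.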

Additional observations from a re-analysis of the deposited data

How the results depend on the processing

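The 24 differences of the 4 genes were recomputed under 9 other settings. Of 204 values, 198 moved by less than the spread between arrays. Many of these could not move, because each gene has 1 spot. A difference stays the same under any rule on missing values that keeps the spot. It also stays the same with each spot on its own or with only 2 groups fitted. With a replicate block it cannot move where no value is missing. Under cyclic loess the differences were -1.48 for Muc1 in Cx32 null minus wild type, 0.88 in Cx43 heterozygous minus wild type, -2.24 in Cx43 null minus Cx43 heterozygous and 0.13 in Cx43 null minus Cx32 null (0.15 under quantile normalization), and 3.14 for Ubl4b in Cx43 heterozygous minus wild type. The cause was not tested. With all 16 values required, Nexmif and Muc1 gave no value.

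Counts of called transcripts depended more on the setting. For Cx43 null against wild type, 1543 became 3941 with array weights, 2342 with each spot on its own and 0 with only the 2 groups fitted by limma (3061 at an unadjusted p under 0.05), and 114 to 3000 with 1 array left out. The 14 called list members became 29 with array weights, 9 with all values present and 0 with only the 2 groups fitted, and 1 to 19 with 1 array left out. For Cx32 null against wild type, 3908 became 5912 by spot and 2256 with 2 groups. For Cx43 null against Cx43 heterozygous, 208 became 80 with all values present and 1847 with array weights, and 82 to 407 with 1 array left out. For Cx43 null against Cx32 null, 12 became 5 with all values present, 549 with array weights, 22 with at least 2 values per group, 22 under cyclic loess, 23 by spot, 7 with 2 groups and 44 under quantile normalization, and 3 to 58 with 1 array left out. For Cx43 heterozygous against Cx32 null, 176 became 82 with all values present, 918 with array weights, 268 with at least 2 values per group and 273 with 2 groups, and 75 to 312 with 1 array left out.

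The replicate numbers are shared between groups, but the main model did not pair the arrays. Deviations of same-numbered arrays correlated at over 0.1 in 4 of 24 cases (range -0.24 to 0.24). Of 16 arrays, 4 had their highest correlation outside their group with an array of the same number. These correlations cannot show whether same-numbered arrays were processed together. With the replicate block, the calls were 5 for Cx43 null against Cx32 null and 1560 for Cx43 null against wild type. Among named list and neighbouring genes, a count added after seeing the data, 0 of 11 calls in Cx43 null, 12 of 18 in Cx43 heterozygous and 7 of 16 in Cx32 null brain passed under every setting, and 0 changed direction. For a gene with several spots, the setting with each spot on its own judged only 1 of them. Ftsj1 in Cx43 heterozygous brain was judged on its spot at 0.76, and its other spot, at 0.40, was not.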

Other observations

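Within Cx43 null brain, replicate 4 had the highest Ubl4b (-1.76) and the highest Nexmif (2.59) of its group and the lowest Gja1 (-2.92), while its Muc1 (-2.97) lay among the others. Within Cx32 null brain, replicate 1 had the lowest Hddc3 (1.05) and Nexmif (2.77) and the highest Ubl4b (-1.90), and gave no value for Muc1.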
